A study of Mus musculus with 9 samples.

Results

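The response of bone marrow-derived macrophages (BMDMs) to LPS plus IFN-γ was described by comparing the 3 Model libraries with the 3 Control libraries. The members were the genes that reached 1 FPKM in 3 or more of these 6 libraries, which gave 11494 of the 55335 genes in the deposited table (20.8%). FPKM is the number of sequenced fragments relative to transcript length and to the mapped total, so levels can be compared between genes per length. The BMDMs were grown from the bone marrow of wild-type male C57BL/6 mice aged 4 to 6 weeks, with 20 ng/mL M-CSF for 5 days in every group. Control cells then received medium alone, and Model cells received LPS at 1 µg/mL together with IFN-γ at 30 ng/mL, for 6 h. Another group of 3 libraries, M+AnxA5, received the same stimuli with the protein AnxA5. Its levels are given here only as levels. The origin of the 3 libraries of a group (1 or several cultures or mice) is not given in the labels or methods, so p-values rest on a library-to-library spread that may be only technical.

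LPS is a cell wall component of Gram-negative bacteria that is bound by TLR4, and TLR4 acts through NF-κB and through IRF3, which induces type I interferon. IFN-γ is a lymphocyte cytokine. The DNA elements through which interferons act include gamma-activated sites (GAS) and interferon-stimulated response elements (ISRE). In macrophages both stimuli together are the classical route to an antimicrobial and inflammatory state called M1.

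The depth was estimated from the smallest steps between low values at 27200000 to 29900000 fragments per Control library and 27200000 to 32100000 per Model library, so 1 fragment on a transcript of 1 kb was worth 0.0311 to 0.0368 FPKM. All 11 entries of the macrophage marker list reached 1 FPKM in all 6 libraries. Their summed level was 13850 to 14920 FPKM in Control and 7867 to 8775 in Model, and Lyz2 made up most of it. The entries (Itgam was listed under 2 gene IDs) did not move together: Adgre1, Mertk, Spi1 and Ptprc were called higher, with log2 fold changes of 0.88, 1.56, 0.37 and 0.85, and the others lower. Markers of T cells summed to at most 0.388 FPKM in any library, and those of NK cells to at most 0.552. Neutrophil markers summed to 191 to 261 FPKM in Control and 227 to 305 in Model, and stromal markers to 95.3 to 159 and 73.9 to 112. The part that these cells had in any result was not tested. In bulk RNA, fewer cells of a type and less RNA per cell cannot be told apart. The library numbered 2 held the largest share of the ribosomal fragments Gm23935 and AY036118 in both groups, 7.47% of the summed FPKM in Control and 3.16% in Model, against 0.628% to 2.85% in the other 4 libraries.

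The change reached most of the expressed genes. At a fold over 1.2 and an adjusted p under 0.05 on log2(FPKM + 1), limma called 8882 of the 11494 genes (77.3%), of which 1872 were higher (16.3%) and 7010 lower (61.0%) in Model. The median log2 fold change was -0.45, so a gene at the median read 0.45 lower on the log2 scale, and changes are best read relative to that shift. The split of the calls depended on the scaling. As deposited, 78.9% of the called genes were lower. With upper-quartile scaling 2462 were higher and 5336 lower (68.4% lower, median -0.25), and with quantile normalization 2889 were higher and 4157 lower (59.0% lower, median -0.11). Of the genes called as deposited, 5893 (66.35%) were also called with quantile normalization, and none of these changed its sign. Genes called in only 1 of these settings are not covered by that count, and Lyz2, which is outside it, did change its sign.

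More than 2-fold changes were called for 955 higher and 1977 lower genes, and over 10-fold changes for 153 and 39. Over 100-fold on this scale there were 27 higher genes and no lower gene. Since 1 is added to each FPKM, a fall cannot exceed the Control level plus 1, so large falls of genes with low Control levels are not counted at their full size. A list of 80 M1, TLR and interferon genes, written from general knowledge, had 73 tested members, of which 67 were higher and 3 lower. It was written with earlier results of these data known, so this count is a description and no independent check. Outside that list there were 1805 higher genes, and 118 of the 153 genes over 10-fold were among them. At the other end, the 95% interval of the change lay within 1.2-fold for 727 genes.

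**Figure D1:**
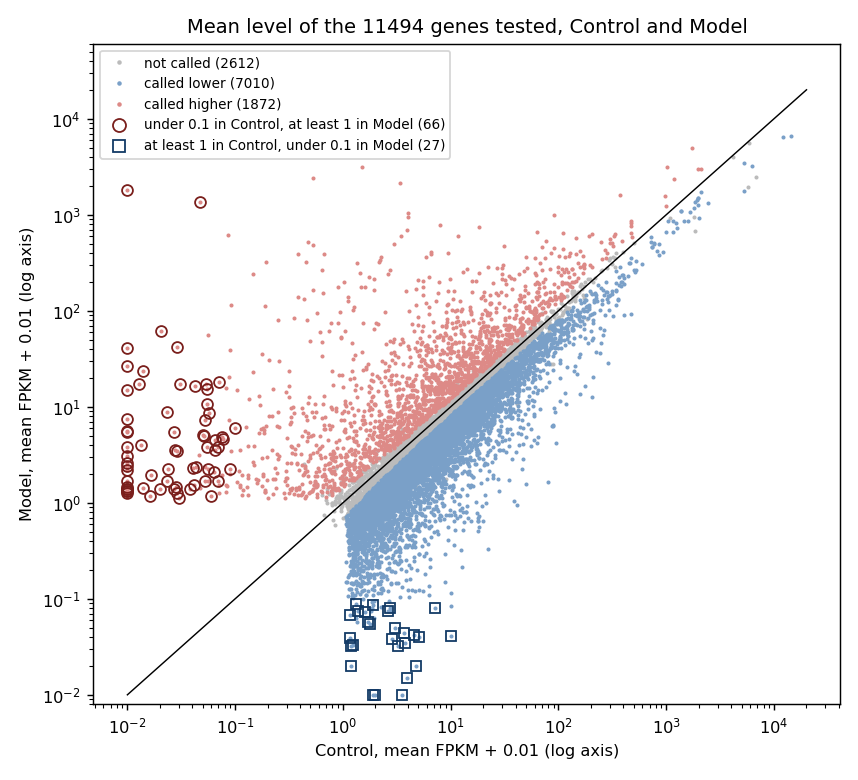
Mean FPKM in Control (x axis) and Model (y axis) of the 11494 genes tested, 1 point per gene, both axes logarithmic after adding 0.01; the line marks equal levels. Open circles are the 66 genes under 0.1 FPKM in every Control library and at least 1 FPKM in every Model library, and open squares the 27 genes with the opposite pattern; the circles reach higher levels than the squares.

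Genes switched on from zero were taken as those listed at 0 FPKM in all 3 Control libraries and at 1 FPKM or more in all 3 Model libraries. There were 19, of which 9 were protein-coding and 1, Nos2, belonged to the best-known list. Without Control replicate 2 the count was 30. The values of this contrast chose them, so their levels are a description with no test and no fold. Gbp2b, a guanylate-binding protein of the interferon-inducible GTPases that act on intracellular pathogens, was at 43.5, 39.0 and 40.7 FPKM in the Model libraries and at 24.3, 30.4 and 30.1 in the M+AnxA5 libraries. Ccl8, a chemokine that attracts monocytes, was at 9.69, 6.13 and 6.47 FPKM in Model. Both stood well above the threshold in every Model library.

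The other 4 named genes switched on from zero were low. Bcl2l14, a member of the Bcl-2 family, was at 2.29, 2.43 and 2.57 FPKM in Model, beside the antisense gene 4933406J09Rik, which overlaps it on the opposite strand and was at 3.82, 3.99 and 3.60. Whether fragments were counted by strand is not given in the sources used here, so the levels of such overlapping genes are uncertain. Il23r, the receptor subunit for IL-23, was at 2.17, 2.21 and 2.12 FPKM. Majin, a protein of meiotic telomeres, was at 1.91, 1.65 and 1.44. Pcp4, a small calmodulin-binding protein, was at 1.52, 1.26 and 1.37. The remaining 12 carried predicted-gene or clone-based names or no symbol. Just inside the threshold was Gm44481, with a lowest Model value of 1.005 FPKM, and just outside were Prm1 at 0.954 and Ido1, the tryptophan-degrading enzyme, at 0.914. Of the 19 genes, 16 were also at 1 FPKM or more in all 3 M+AnxA5 libraries, which the choice did not use.

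Allowing traces in Control, under 0.1 FPKM in every library, 66 genes were switched on, and 39 of these were protein-coding. This is the class plotted by library, and its named genes were chosen after their values were seen, as the highest in Model. Together the 66 genes went from at most 0.000556% of the summed FPKM in a Control library to 1.21% to 1.31% in Model. Most of that share lay in Nos2 and Cxcl9, which belong to the 6 best-known genes of this class. Nos2 held 0.602%, 0.578% and 0.677% in the Model libraries, and Cxcl9 held 0.454%, 0.465% and 0.471%. Serpina3f, a serine protease inhibitor, was at 0, 0.0321 and 0 FPKM in Control and at 66.3, 64.7 and 55.4 in Model. Clic5, a chloride intracellular channel protein, was at 0, 0.00799 and 0.00379 in Control and at 24.4, 22.98 and 23.3 in Model. Dnase1l3, a secreted nuclease that degrades DNA in chromatin, was at 0.0454, 0 and 0.0176 in Control and at 19.1, 15.3 and 17.8 in Model. In these 3 genes the groups were more than 2 orders of magnitude apart.

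Cytokine and receptor genes of other leukocytes were in the same class. Ifng, which encodes one of the added stimuli itself, was at 0, 0.0536 and 0 FPKM in Control and at 3.97, 3.55 and 3.12 in Model. Lta, encoding lymphotoxin alpha, was at 0.0139, 0.0150 and 0.0120 in Control and at 2.35, 2.51 and 1.91 in Model. Klrk1, the activating receptor NKG2D of NK and T cells, was at 0.0420, 0.0205 and 0.0758 in Control and at 2.47, 2.19 and 2.11 in Model. In the Model libraries the markers of T cells summed to 0.0812 to 0.388 FPKM and those of NK cells to 0.0169 to 0.0694, with Gzma at 0 in all 6 libraries.

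Xcr1, a chemokine receptor that marks cross-presenting dendritic cells, was at 0.0983, 0.0348 and 0.0624 FPKM in Control and at 4.96, 5.12 and 4.49 in Model. Clec9a, a receptor for dead cells on the same dendritic cells, was at 0.182, 0.444 and 0.0942 in Control and at 8.94, 9.17 and 8.20 in Model (log2 fold change 2.99). The other 3 markers of the dendritic cell list stayed near zero: Flt3 was at most 0.0216 FPKM, Siglech at most 0.00920 and Zbtb46 at most 0.214 in any of the 6 libraries. The summed level of the 5 markers went from 0.313 to 0.541 FPKM in Control to 12.8 to 14.5 in Model, and nearly all of it came from Clec9a and Xcr1.

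**Figure D2:**
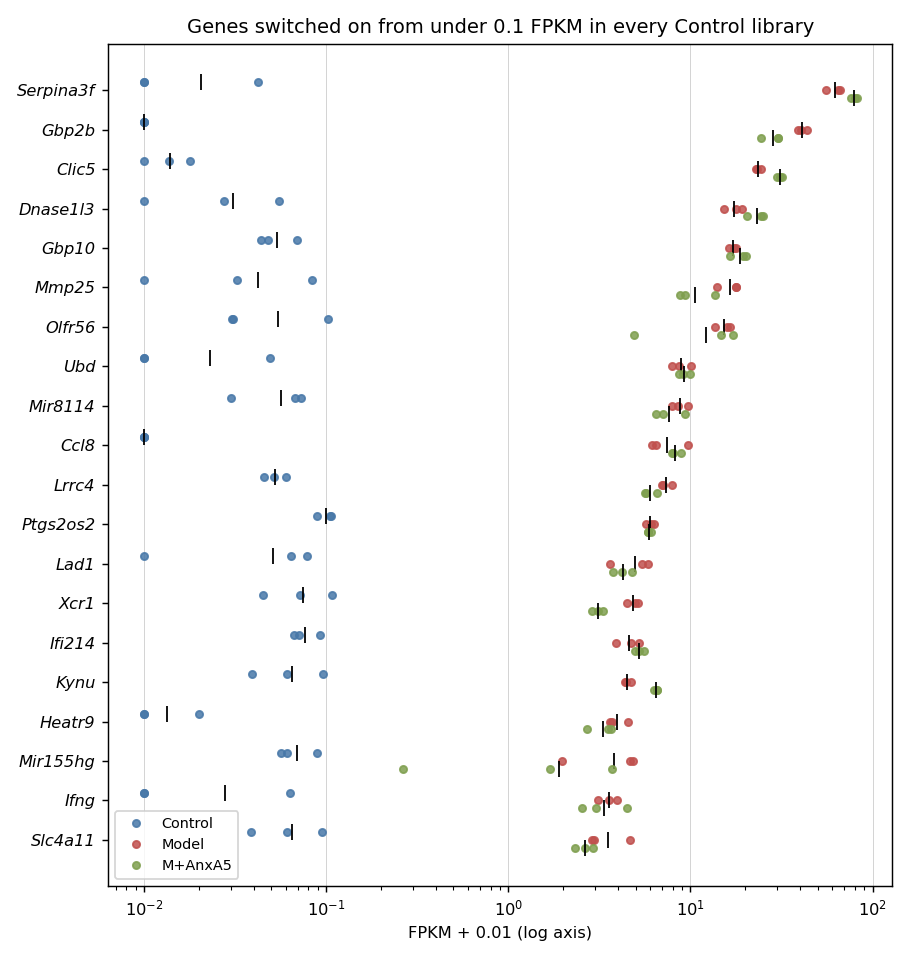
FPKM plus 0.01 on a logarithmic axis of the 20 named genes with the highest Model mean among those under 0.1 FPKM in every Control library; each dot is 1 library (3 per group) and each black tick a group mean. The Control dots lie at or under 0.11 and the Model dots all lie above 1, and the M+AnxA5 dots lie near the Model dots except for single low libraries of Mir155hg and Olfr56.

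The promoters of the induced genes were read from RefSeq (GRCm38.p6, 250 bases before to 50 after the start), which matched 8103 of the 11494 genes by symbol. These letters were searched on both strands: GAAANNGAA for the core of an ISRE, TTCNNNGAA for a GAS, and GGANNTTCC for a form of the NF-κB site. The ISRE core was in 33.7% of the 104 matched promoters of genes higher over 10-fold, in 13.8% of those of all higher genes, in 7.76% of those of all genes tested and in 6.56% of those of lower genes. Over all 27025 promoters in the table it was in 8.57%. A GAS was in 20.2% of the promoters of genes over 10-fold, against 6.86% of all genes tested, and the NF-κB form in 17.3% against 4.76%.
Other letters differed as well. The AP-1 site TGANTCA was in 25% of the promoters of genes over 10-fold, against 4.91% of all genes tested, and TATAAA in 26.0% against 6.65%, whereas CCAAT was in 31.7% against 39.0%. The NRF1 site CGCATGCG was in none of the 104, against 4.33% of all genes tested. Of the 34 matched promoters of genes switched on from under 0.1 FPKM, 23.5% held the ISRE core. A match is a description of the letters, not of binding.

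Matches in 8 induced genes and in 1 lost gene show how these letters lie upstream of the RefSeq start. For Galnt9, AW112010 and Serpinb9 that start lies inside the gene as GENCODE M21 locates it. Each line runs 5′ to 3′ on the strand of the gene, with the ISRE core, GAS or NF-κB letters in capitals and 10 bases on each side.
Gbp2b, ISRE core, chr3:142594701-142594729, plus strand: tacttctaatTTCACTTTCttctttatca
Serpina3f, ISRE core overlapping a GAS, chr12:104214407-104214435, plus strand: aacctatcagTTCTATTTCCTAGAAatca
Klrk1, ISRE core, chr6:129623894-129623922, minus strand: ctcaaacatcTTCACTTTCagttccaatt
Serpinb9, ISRE core, chr13:33004486-33004514, plus strand: tcctgctactTTCACTTTCtctaaggacc
Rsad2, ISRE core, chr12:26456553-26456581, minus strand: tggtccaactTTCATTTTCagaaaacaga
Tgtp2, ISRE core, chr11:49064264-49064292, minus strand: tccaggaatcGAAACCGAAacctactctg
Tarm1, ISRE core, chr7:3502677-3502705, minus strand: cctgaaatttGAAACGGAAgaggaccaag
AW112010, NF-κB form, chr19:11050618-11050646, minus strand: ttccaagcaaGGAATTTCCcaagtgggaa
Galnt9, ISRE core, chr5:110603394-110603422, plus strand: gattattagaGAAAAGGAAgcgtgtcctt
Gbp2b, Klrk1 and Serpinb9 carried the same 9 letters, TTCACTTTC, in this stretch, and Galnt9, which was listed at 0 in Model, also held the ISRE core.

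Among genes detected in all 6 libraries, outside the best-known list and leaving out clone-based and predicted names such as AA467197 (7.81) and AW112010, the 10 highest fold changes among genes of at least 5 FPKM were as follows. Those under 1 FPKM in Control entered through their Model levels and are given with no test. Saa3, a serum amyloid A protein, was at 0.270, 0.238 and 0.599 FPKM in Control and at 389.8, 398 and 374 in Model (log2 fold change 8.16). Cfb, complement factor B, was at 0.779, 0.579 and 0.628 in Control and at 389, 407 and 378 in Model (7.88). Tarm1, an activating receptor of the leukocyte immunoglobulin-like family, was at 0.568, 0.276 and 0.282 in Control and at 132, 141 and 141 in Model (6.67). Serpina3g, a neighbour of Serpina3f, was at 0.551, 0.677 and 0.657 in Control and at 297, 259 and 250 in Model (7.37). The log2 fold changes of Iigp1, Tgtp2 and Gbp4, interferon-inducible GTPases, were 7.72, 7.08 and 6.73, those of the antiviral genes Rsad2 and Oasl1 were 7.08 and 6.76, and that of Ifi205, a DNA sensor family member, was 6.83. The choice took only genes whose groups did not overlap, a trait of 9686 of the 11494 genes tested (84.3%). Ifi205 was at 0.0280 FPKM in Control replicate 1 but at 2.08 and 2.17 in the other Control libraries.

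Many of the strongest genes lie side by side. Runs of at least 3 neighbouring tested protein-coding genes that were all higher by over 4-fold were found at 17 places. On chromosome 3 from 142493978 to 142638008 the run held Gbp5, Gbp7, Gbp3, Gbp2b and Gbp2, with log2 fold changes from 4.59 to 8.95, and on chromosome 5 from 105077630 to 105293698 it held Gbp9, Gbp4, Gm43302, Gbp10 and Gbp6, from 3.73 to 6.73. Other runs were the DNA sensor genes Ifi206 to Ifi205 on chromosome 1, in 2 groups of 5, the Slfn genes and the chemokine genes Ccl2, Ccl7, Ccl12 and Ccl8 on chromosome 11, the Trim30 genes on chromosome 7 and Phf11a, Phf11b and Phf11d on chromosome 14. Coordinates here are from GENCODE M21 (GRCm38). Members of these runs are often near-identical copies between which reads can be divided in different ways, so single values within a run are uncertain. The run of Parp14, Dtx3l and Parp9 on chromosome 16, from 2.27 to 3.60, held ADP-ribosylation genes with the ubiquitin ligase Dtx3l.

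Far fewer genes were lost than switched on. At least 1 FPKM in all 3 Control libraries and 0 in all 3 Model libraries held for 3 genes. Galnt9, a glycosyltransferase that starts O-linked glycans, was at 3.35, 3.36 and 3.91 FPKM in Control, and in M+AnxA5 at 0.0302, 0 and 0.0828. Lyzl4, a lysozyme-like gene, was at 1.83, 1.79 and 2.28 in Control. The third was the noncoding Gm38843. None of the 3 was at 0 in all 3 M+AnxA5 libraries. Without Model replicate 3 the count of lost genes was 5. Under 0.1 FPKM in every Model library were 27 genes, 20 of them protein-coding, and 17 of the 27 were also under 0.1 in every M+AnxA5 library.

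The following are among the highest of these 27 in Control and were named after their values were seen. Pald1, a phosphatase-like protein, was at 9.87, 9.67 and 10.6 FPKM in Control and at 0.0195, 0.0725 and 0 in Model. Slco2b1, an organic anion transporter, was at 5.19, 4.31 and 4.86 in Control and at 0.0112, 0.0185 and 0 in Model. Deptor, an inhibitor of the kinase mTOR, was at 4.62, 4.61 and 4.42 in Control and at 0.0359, 0.0289 and 0.0298 in Model. The groups were at least 2 orders of magnitude apart in these 3 genes. Nuf2 and Nek2, which act in mitosis, went from 1.15 to 1.46 and 1.17 to 1.295 FPKM in Control to at most 0.0849 and 0.0416 in Model.

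A broader class of 73 genes went from at least 5 FPKM in every Control library to under 1 in every Model library, and 57 of these were under 1 in every M+AnxA5 library too. Slc46a3, a lysosomal transporter, was at 27.1, 18.9 and 20.8 FPKM in Control and at 0.208, 0.470 and 0.279 in Model (log2 fold change -4.13). Ptgs1, the constitutive cyclooxygenase, was at 17.6, 19.9 and 17.7 in Control and at 0.859, 0.655 and 0.640 in Model (-3.50). Hpgd, which inactivates prostaglandins, was at 14.3, 21.1 and 17.9 in Control and at 0.513, 0.722 and 0.652 in Model (-3.51). Control and Model did not overlap in any of the 3 genes, by construction of the class.

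Gpr183, the receptor for oxysterols that guides leukocyte migration, was at 12.6 FPKM in each Control library and at 0.180, 0.307 and 0.127 in Model (-3.50); Ubac2 overlaps it on the opposite strand. F13a1, a coagulation factor subunit of macrophages, was at 15.7, 19.6 and 17.7 in Control and at 0.673, 0.830 and 0.830 in Model (-3.39). Rrm2, a subunit of ribonucleotide reductase, was at 13.3, 15.0 and 12.99 in Control and at 0.674, 0.993 and 0.726 in Model (-3.04). The remaining genes named by level in this class were Zdhhc14, Arhgap22, Gcnt1, Susd3, Slc9a9, Arhgap18, Kcnj2, Cracr2b, Mxd4, Tpcn1, St6gal1, Slc26a11, Xylt1 and Arhgef6, with log2 fold changes from -2.84 to -3.67. Kcnj2 is an inward-rectifier potassium channel, Slc9a9 an endosomal sodium-proton exchanger and St6gal1 a sialyltransferase. Elane, a neutrophil granule protease of the neutrophil marker list, was also in the class. It was at 6.57, 5.08 and 7.00 FPKM in Control and 0.269, 0.111 and 0 in Model. The markers of that list did not move together. Mpo went from 5.65, 3.30 and 4.04 in Control to 0.165, 0.0827 and 0.0947 in Model, and Ltf was called lower (-0.66). S100a8 (0.45) and Camp (0.93) were called higher. S100a9 was not called, at 129, 116 and 154 in Control and at 184, 130 and 141 in Model. Ly6g and Cxcr2 were too low to test.

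**Figure D3:**
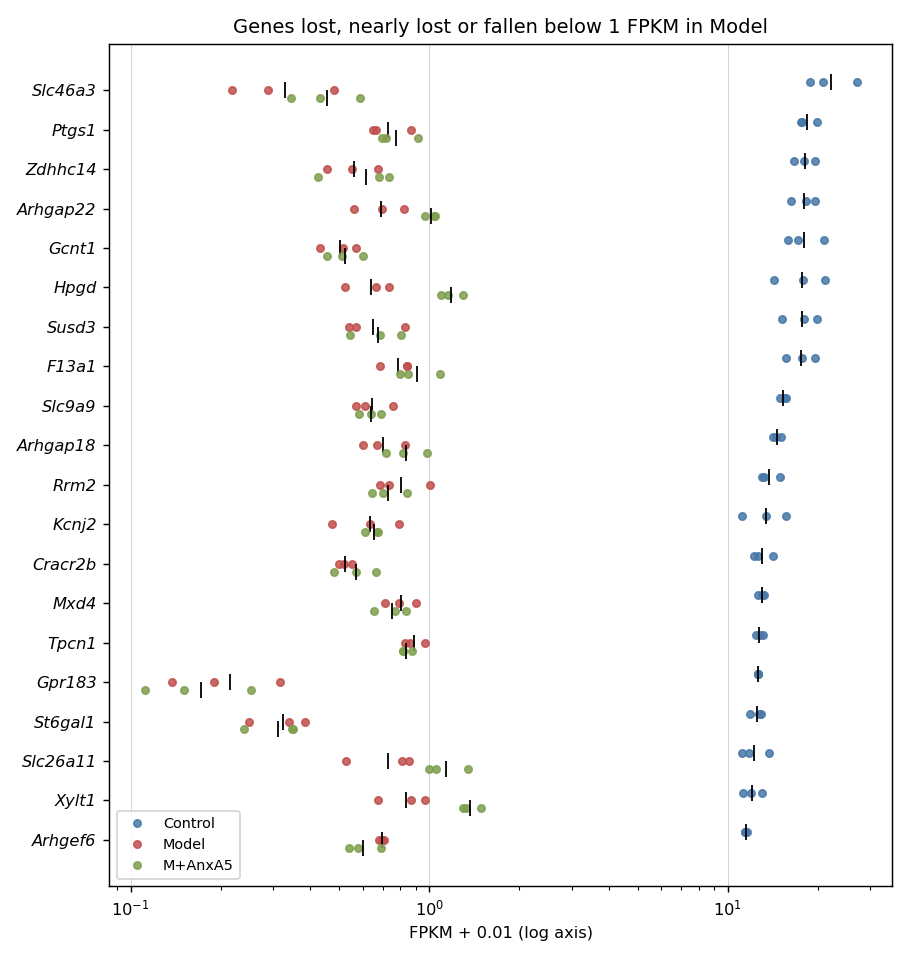
FPKM plus 0.01 on a logarithmic axis of the 20 named genes with the highest Control mean among those lost, nearly lost or fallen from at least 5 to under 1 FPKM; each dot is 1 library (3 per group) and each black tick a group mean. Every Control dot is above 10 and every Model dot near or under 1, and the M+AnxA5 dots lie within 0.1 to 1.5.

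The lowest fold changes among genes above 0 in every library included these. Arhgap19 was at 39.5, 39.5 and 43.8 FPKM in Control and at 1.23, 0.893 and 0.721 in Model (log2 fold change -4.43, limma adjusted p = 5.55e-10). Sesn1, a stress-induced inhibitor of mTORC1 signalling, was at 31.5, 40.7 and 43.2 in Control and at 0.965, 1.06 and 1.04 in Model (-4.28). Itgb5, an integrin beta chain for vitronectin, was at 205, 201 and 211 in Control and at 12.6, 12.7 and 12.95 in Model (-3.91). Itga6, the laminin-binding integrin alpha chain, was at 33.1, 36.7 and 35.4 in Control and at 1.86, 1.72 and 1.60 in Model (-3.73). Tmem37, a membrane protein, had a log2 fold change of -3.86. With quantile normalization these 5 stayed between -3.59 and -4.33.

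The classes that rose and fell carried different weight. The 103 genes that went from under 1 FPKM in every Control library to at least 5 in every Model library held 0.00956% to 0.0117% of the summed FPKM in Control and 3.93% to 4.07% in Model. They included 14 genes of the best-known list, which held much of that Model share. Acod1, Nos2 and Cxcl9 alone held 0.811%, 0.619% and 0.463% on average in Model. The 73 genes that fell from at least 5 to under 1 held 0.218% to 0.241% in Control and 0.0135% to 0.0143% in Model. Of the 103 genes, 98 were at 5 FPKM or more in all M+AnxA5 libraries. Among all genes tested, 330 reached 1 FPKM only in Model libraries and 1245 only in Control libraries, and such genes had to differ to be counted so. The 9078 genes at 1 FPKM or more in all 6 libraries held 1444 higher and 5300 lower calls.

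The share of total expression that changed hands was large. Between a Control and a Model library, the summed gains in percentage points of FPKM had a median of 31.9 (30.9 to 33.7 over the 9 pairs of libraries), against a median of 5.73 (3.94 to 8.32 over 6 pairs) between libraries of the same group. Pairs share libraries, so no test was made. The best-known list went from 0.302%, 0.294% and 0.313% of the summed FPKM in Control to 7.24%, 6.93% and 7.21% in Model (exact two-sided permutation test, p = 0.1, the smallest that 3 against 3 libraries can give). That list was written with earlier results of these data known, so the test is not independent of them. The other higher genes, chosen by this contrast and given as a description, went from 13.9%, 13.02% and 14.3% to 37.7%, 36.3% and 37.6%. The lower genes went from 63.8% ± 2.55 to 36.4% ± 0.71 (SD, n = 3 in each group).

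**Figure D4:**
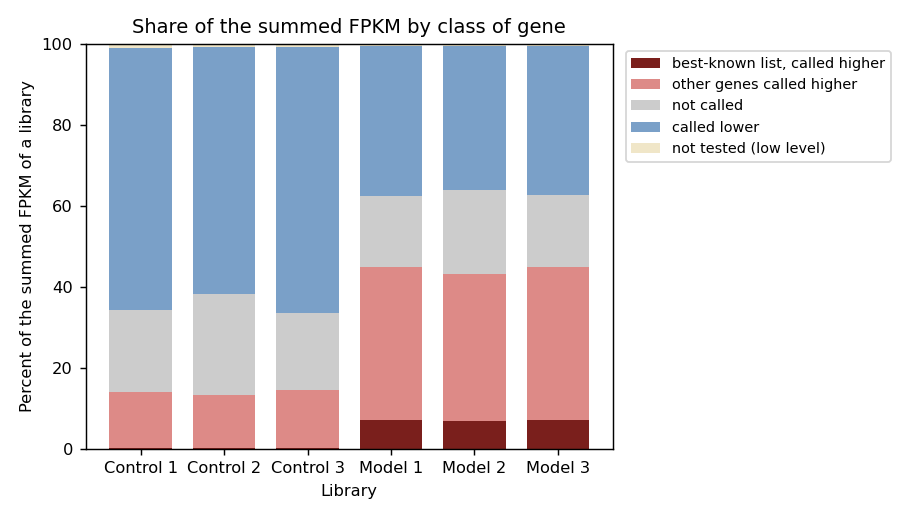
Percent of the summed FPKM of each Control and Model library (bars, 1 per library) held by the best-known genes called higher, other genes called higher, genes not called, genes called lower and genes too low to test. The other genes called higher hold 13.02% to 14.3% in Control and 36.3% to 37.7% in Model, and the best-known genes take a visible share only in Model.

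The 15 largest gains in share reached beyond the cytokines. B2m, the light chain of MHC class I, was at 1783, 1632 and 1786 FPKM in Control and at 5098, 4789 and 4808 in Model, a gain of 1.11 percentage points (log2 fold change 1.499, limma adjusted p = 1.30e-08). Prdx1, a peroxiredoxin that reduces hydrogen peroxide, was at 997, 989 and 1073 in Control and at 3175, 3063 and 3218 in Model, a gain of 0.743 points. Hmox1, heme oxygenase 1, gained 0.426 points, from 344, 373 and 390 FPKM to 1560, 1576 and 1674. The cytoskeletal genes Actb and Tmsb4x gained 0.421 and 0.394 points, and Fth1, the ferritin heavy chain, gained 0.345 points. Fth1 had a log2 fold change of 0.51 as deposited and 0.21 with quantile normalization.
Gbp2 gained 0.724 points, from 3.02, 3.15 and 3.86 FPKM to 2177, 2080 and 2155 (8.95). AW112010, an interferon-induced noncoding transcript of mouse, gained 0.354 points, from 4.10, 3.85 and 4.03 FPKM to 1064, 1012 and 1063 (7.71). Ifit2, Ifitm3 and Isg15, antiviral genes, gained 0.324, 0.309 and 0.261 points, and Ccl5, Acod1, Nos2 and Cxcl9 gained 1.06, 0.811, 0.619 and 0.463. Of the 100 most abundant protein-coding genes in Model, 57 were also among the 100 most abundant in Control, and 23 ranked beyond 1000 there. Only 1 of the Control 100 ranked beyond 1000 in Model.

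The largest losses of share were in these genes. Lyz2, the macrophage lysozyme, was at 11460, 12610 and 12320 FPKM in Control and at 6045, 6944 and 6174 in Model, a loss of 1.72 percentage points of share (log2 fold change -0.93, and 0.17 with quantile normalization, which reverses it). Ctsd, the lysosomal protease cathepsin D, was at 5331, 4979 and 5310 in Control and at 1768, 1691 and 1799 in Model (-1.57). Ctss and Ctsb, other cathepsins, had log2 fold changes of -0.60 and -0.63, Apoe, a lipid carrier, -0.88, Gpnmb, a lysosomal glycoprotein, -1.13, and Eef1a1, a translation elongation factor, -0.76. Control and Model did not overlap in these 5 genes, nor in 84.3% of all genes tested.
Ftl1, the ferritin light chain, was at 6882, 5803 and 6084 FPKM in Control and at 3413, 3275 and 2886 in Model (-0.97), so both ferritin chains moved in opposite directions as deposited. The entry with the largest loss, Gm22133, has 109 bases of exon and lies within Ftl1 on the same strand, and Gm26377, with 108 bases, lies within Eef1a1. Their fragments cannot be told apart from those of the host genes, and short entries have high FPKM for their number of fragments. The ribosomal entries Gm23935, AY036118 and CT010467.1 lost share but did not pass the test (adjusted p = 0.14, 0.11 and 0.12 from limma); the libraries numbered 2 held the most of Gm23935 and AY036118 in both groups. mt-Atp6, a subunit of the mitochondrial ATP synthase, was at 1717, 1888 and 1805 in Control and at 223, 1357 and 1294 in Model, so Model replicate 1 lay far below the other libraries of its group, and it did not pass the test (adjusted p = 0.064). mt-Cytb passed it, with a log2 fold change of -0.64.

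How concentrated expression was depended on the measure and on the entries counted. The 10 most abundant genes held 21.4%, 24.7% and 19.7% of the summed FPKM in Control and 15.1%, 15.6% and 14.6% in Model, while the top 1000 held 71.0% ± 0.92 and 74.4% ± 0.31 (SD, n = 3 in each, exact permutation p = 0.1 for both). Among protein-coding genes alone, the top 10 held 18.7% ± 0.33 in Control and 15.3% ± 0.21 in Model, and the top 1000 held 69.2% ± 0.31 and 75.04% ± 0.24, so both directions remained. The top 100 held 45.1% ± 1.89 and 41.5% ± 0.84 over all genes and 41.5% ± 1.09 and 40.2% ± 0.45 without entries under 200 bases, but 40.85% ± 0.25 and 40.83% ± 0.15 among protein-coding genes. In all, 174, 136 and 188 genes held 50% of the summed FPKM in Control and 189, 176 and 193 in Model (exact permutation p = 0.2), against 231, 243 and 233 and then 190, 194 and 192 among protein-coding genes (p = 0.1). A choice of entries thus turned the direction of this count.

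Some genes kept their level on the scale as deposited, which holds for that scaling only. Of the 727 genes with an interval within 1.2-fold, the most abundant included Psap, a precursor of lysosomal saposins, at 4421, 3799 and 4225 FPKM in Control and 4182, 3656 and 4005 in Model, and Cyba, a subunit of the phagocyte NADPH oxidase, at 422, 358 and 403 in Control and 425, 390 and 401 in Model. Anxa5, the gene of the protein added in M+AnxA5, was at 324, 301 and 310 in Control and 306, 307 and 300 in Model. Cdc42, Cfl1, Arpc2, Cd53, Grn, S100a11 and mt-Co1 were the other genes among the first 10. The groups overlapped in 9 of these 10 genes and not in Arpc2, whose log2 fold change was 0.09. With quantile normalization 8 of the 10 lay between -0.30 and -0.38 on the log2 scale, and mt-Co1 and Psap at 0.24 and 0.35.

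The response was next read by gene family, with 74 families defined by symbol and 10 lists of pathways. Each count is set beside the 16.3% higher and 61.0% lower over all genes tested, and 63 families had at least 8 tested members. Genes under 1 FPKM in every Control library were tested only through their Model levels, so their fold changes are a description. Among those named below are Apol6, Hcar2, Adora2a, Lpar1 and Pde4b. Rnf144b, Acsl3, Adcy3 and Hgf were in turn tested only through their Control levels. Serpins, inhibitors of serine proteases, had the highest share of higher genes, 10 of 16, with 3 lower, and 11 and 2 with quantile normalization. Serpinb9, which inhibits granzyme B, was at 8.83, 10.3 and 10.5 FPKM in Control and at 205, 210 and 225 in Model (log2 fold change 4.30, limma adjusted p = 6.32e-11), while Serpinb6a went from 40.3, 39.8 and 40.7 to 11.04, 11.27 and 11.02 (-1.77). Apolipoproteins and related genes were divided, 5 higher and 5 lower of 10. Apol6 and Apol7c, of the family of apolipoprotein L, rose by 1.57 and 1.44 on the log2 scale, and the lipoprotein genes Apoc2 and the receptor Apobr had -2.63 and -2.13.

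Cell surface receptors changed in both directions. Of 32 orphan and adhesion G protein-coupled receptors 11 were higher and 14 lower, and of 21 receptors for lipids and nucleotides 7 were higher and 11 lower. With quantile normalization the first had 13 higher and 11 lower, which turns the direction, and the second 8 and 8. Hcar2, the receptor for nicotinic acid and ketone bodies, was at 0.3196, 0.114 and 0.150 FPKM in Control and at 30.5, 32.0 and 30.3 in Model (4.74). Adora2a, the adenosine receptor that raises cAMP, was at 0.740, 0.713 and 0.518 in Control and at 12.98, 12.63 and 12.99 in Model (3.07). The lysophosphatidic acid receptors Lpar1 and Lpar5 moved in opposite directions, by 2.04 and -2.12, and so did Gpr141 (2.54) and the adhesion receptor Adgre5 (-2.96). Of 50 ion channel genes 13 were higher and 24 lower, but 18 and 17 with quantile normalization. Named by a low adjusted p were Lrrc8c (2.99), a subunit of volume-regulated anion channels, Clic4 (1.91) and the endolysosomal channel Mcoln2 (1.72). These were all higher. Of the family as deposited, 26.0% were higher and 48.0% lower, against 16.3% and 61.0% over all genes tested. Clic5 also ranked there, but it was tested only through its Model levels, so its rank carries no weight.

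Signalling and trafficking families were also mixed. Protein tyrosine phosphatases had 6 higher and 10 lower of 19 (7 and 7 with quantile normalization), with Ptpra (-1.51) and Ptpn22 (-1.44), a brake on lymphocyte receptor signalling, among those with the lowest adjusted p. SNARE proteins, which fuse membranes, had 10 higher and 12 lower of 33, but 15 and 8 with quantile normalization, which turns the direction. Stx11, a syntaxin needed for cytotoxic granule release, was at 2.55, 1.67 and 1.42 FPKM in Control and at 18.7, 18.7 and 18.2 in Model (2.78). RING finger genes named Rnf had 17 higher and 32 lower of 58 (19 and 19 with quantile normalization), and held extremes on both sides. Rnf213, a giant ubiquitin ligase that coats intracellular bacteria, was at 22.0, 20.3 and 23.7 in Control and at 290, 276 and 290 in Model (3.64), while Rnf144b was at 4.80, 5.83 and 5.80 in Control and at 0.0882, 0.126 and 0.120 in Model (-2.54).
Actin nucleators and their regulators had 8 higher and 14 lower of 31, with the formin-like genes Fmnl1 (-2.42) and Fmnl3 (-2.17) against Fmnl2 (1.45). Phosphoinositide kinases and phosphatases had 11 higher and 24 lower of 43 (13 and 13 with quantile normalization), with Inpp5b at 1.84 and Inpp5d, the SHIP1 phosphatase, at -1.13.

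At the other end, 8 of the 63 families had no higher gene, and 5 of these are described. Cytochrome P450 enzymes had 8 lower of 9, led by the sterol enzymes Cyp51 (-2.70) and Cyp27a1 (-1.77). Glutathione transferases had 14 lower of 16, with Gsto1 at -1.52, and the hosts of small nucleolar RNAs 9 of 10, with Gas5 at -0.87.
Peroxisome biogenesis had 13 lower of 15, but 2 higher and 4 lower with quantile normalization. Enzymes of glycosaminoglycan synthesis had 12 lower of 14, and 1 higher and 11 lower with quantile normalization. Ndst1, a heparan sulfate sulfotransferase, was at 17.7, 17.3 and 17.4 in Control and at 3.45, 3.40 and 3.24 in Model (-2.08), and Hs2st1, which acts on the same chains, had -1.68.

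Families with few higher genes included calcium sensors and their kinases, with 2 higher and 23 lower of 29. Calm2, a calmodulin gene, was at 246, 248 and 232 FPKM in Control and at 66.3, 72.1 and 60.6 in Model (-1.85), and Camk1 was at -2.58. ABC transporters had 4 higher of 27 (14.8%), close to the share over all genes tested, and 21 lower, with Abcc3, a transporter of conjugated organic anions, at 45.0, 46.6 and 48.4 in Control and at 2.72, 2.94 and 2.94 in Model (-3.62). Forkhead factors had 1 higher and 10 lower of 13, with Foxo3 at -1.37. Aldehyde dehydrogenases and aldo-keto reductases had 2 higher and 16 lower of 21, with Aldh9a1 at -2.50 and Aldh1b1, a mitochondrial enzyme, at 2.29.

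**Figure D5:**
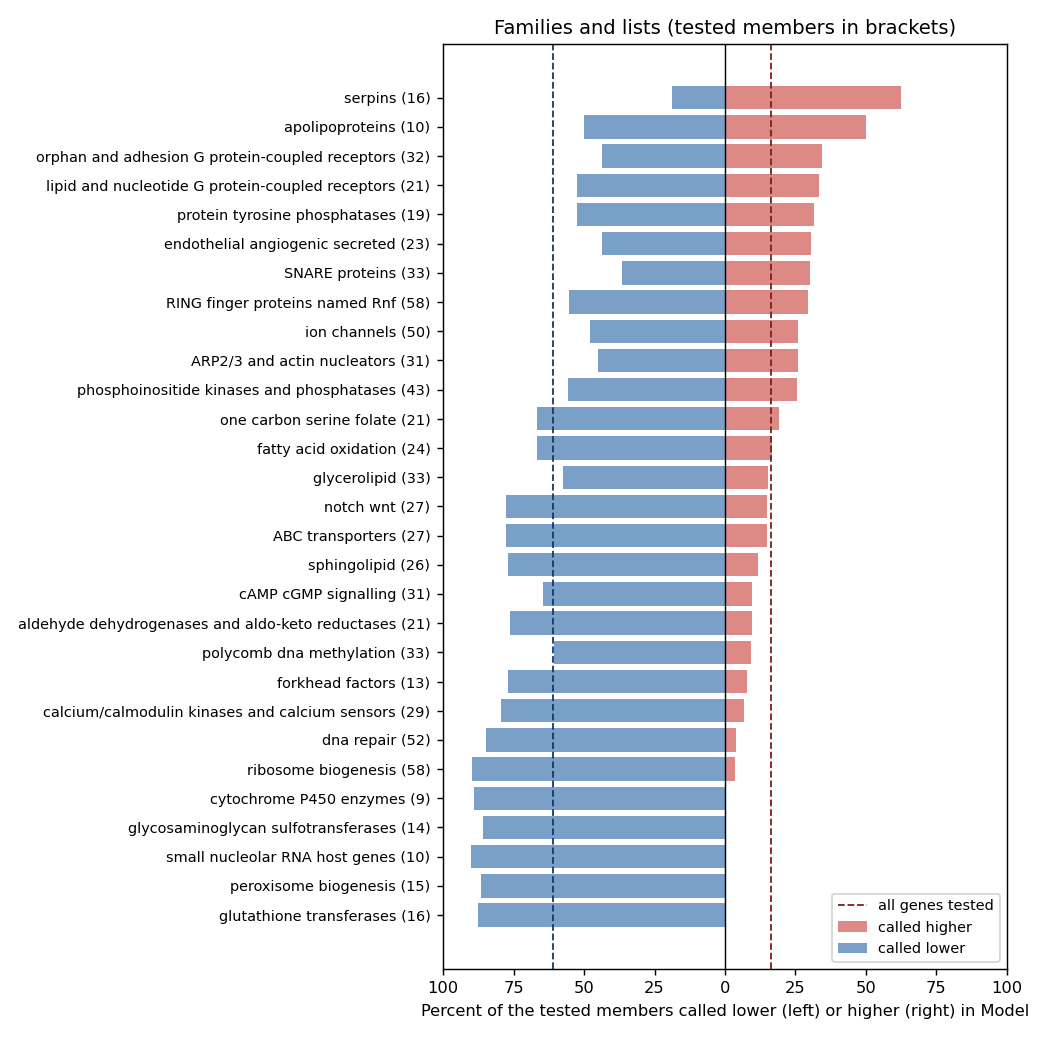
Percent of the tested members of each described family or list that limma called lower (bars to the left) or higher (bars to the right) in Model, with the number of tested members in brackets; dashed lines give the shares over all 11494 genes, 61.0% and 16.3%. Serpins are the only group with more than 50% higher, and 5 of the plotted families have no higher member.

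The lists of pathways gave these counts, to be read beside 16.3% higher and 61.0% lower over all genes tested. Higher and lower shares were 16.7% and 66.7% in fatty acid oxidation and 15.2% and 57.6% in glycerolipid genes. In one-carbon, serine and folate metabolism they were 19.0% and 66.7%. These 3 lists were thus close to all genes tested. The lower shares of polycomb and DNA methylation (60.6%) and of cAMP and cGMP signalling (64.5%) were close as well. In fatty acid oxidation 4 of 24 genes were higher and 16 lower. Acsl1, which activates long-chain fatty acids, was at 4.30, 4.23 and 4.55 FPKM in Control and at 69.7, 79.8 and 69.8 in Model (log2 fold change 3.79, limma adjusted p = 1.41e-10), whereas Acsl3 of the same enzyme family was at 7.97, 7.74 and 7.95 in Control and at 0.530, 0.705 and 0.731 in Model (-2.43). The oxidation enzymes Hadh and Acaa2 had -1.88 and -1.73. In one-carbon, serine and folate metabolism 4 of 21 were higher and 14 lower. Mtr, the methionine synthase, was at 7.74, 8.59 and 8.23 in Control and at 1.198, 1.08 and 1.27 in Model (-2.07).

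Sphingolipid genes had 3 higher and 20 lower of 26, led by the ceramide kinase Cerk (-2.66). Glycerolipid genes had 5 higher and 19 lower of 33, with 10 and 12 under quantile normalization. Cept1, which makes phosphatidylcholine and phosphatidylethanolamine, rose by 1.52 on the log2 scale, and Lpin1, a phosphatidate phosphatase, had -1.86. Ribosome biogenesis had 2 higher and 52 lower of 58, the nucleolar genes Ncl, Npm1 and Dkc1 at -0.84, -0.99 and -1.31, and DNA repair 2 higher and 44 lower of 52, with Apex1 at -1.60 and Msh6 at -1.61. With quantile normalization these 2 lists had 6 higher and 33 lower, and 4 higher and 28 lower. Of the 52 DNA repair genes, 28 were at 1 FPKM or more in all 6 libraries, against 9078 of all 11494 tested. That count was 14 of 21 in one-carbon genes, 10 of 15 in peroxisome biogenesis and 11 of 21 in lipid and nucleotide receptors. Members that reached 1 FPKM only in Control had to be lower in Model, so part of the lower counts can be built in.
In Notch and Wnt signalling 4 of 27 were higher and 21 lower, with the Wnt co-receptor Lrp6 at -1.66 and the Notch coactivator Maml3 at -1.50. In cAMP and cGMP signalling 3 of 31 were higher and 20 lower. The adenylate cyclases Adcy3, Adcy7 and Adcy9 had -2.44, -1.99 and -2.04, and Pde4b, which degrades cAMP, was at 0.523, 0.399 and 0.408 FPKM in Control and at 7.81, 8.27 and 8.15 in Model (2.65).
Polycomb and DNA methylation genes had 3 higher and 20 lower of 33, and 10 and 13 with quantile normalization, with Dnmt1, the maintenance methyltransferase, at -1.75 and its partner Uhrf1 at -2.53. Secreted growth and vessel factors had 7 higher (30.4%) and 10 lower (43.5%) of 23, and 8 and 9 with quantile normalization. Relative to the 16.3% and 61.0% over all genes tested, this list leaned to higher, although the members named here were lower. Igf1, a growth factor made by macrophages, was at 65.1, 67.2 and 71.3 in Control and at 9.69, 9.03 and 9.65 in Model (-2.72), and Hgf was at 5.37, 5.13 and 6.39 in Control and at 0.732, 0.557 and 0.504 in Model (-2.05).

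Other families also changed with the scaling. Of 222 zinc finger genes named Zfp, 14 were higher and 168 lower as deposited, but 34 higher and 46 lower with quantile normalization. Of 50 histone methyltransferases and demethylases, 7 were higher and 20 lower as deposited, but 23 higher and 9 lower with quantile normalization, which turns the direction. By mean level over the 6 libraries, 11.4% of the 2336 genes under 2 FPKM and 45.2% of the 409 genes at 100 FPKM or more were higher. The low class had 267 higher and 1627 lower as deposited, and 509 and 691 with quantile normalization. The high class had 185 higher and 162 lower as deposited, and 153 and 190 with quantile normalization. The mean includes Model, so a rise itself lifts a gene to a higher class. Adding 1 to each FPKM also damps changes of low genes, so the gradient is partly built in. The gene's span made little difference: the share of higher genes was between 15.4% and 16.1% in all 4 span classes of protein-coding genes.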

How the data were processed

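The authors deposited 1 table of FPKM per gene and library for 9 RNA-seq libraries; the submitters' processing notes name the build mm10 and the tools edgeR, DESeq2, StringTie 2.1.6, STAR and cutadapt 1.9, without saying what each did. The library protocol selected poly(A) RNA and marked strand with dUTP. FPKM depend on the total mapped, so a few abundant entries shift all other values. Genes were tested on log2(FPKM + 1) with limma 3.58.1 in R 4.3.3 (3 group means over all 9 libraries, empirical Bayes with trend, no replicate block, Benjamini-Hochberg), called at a fold over 1.2 and an adjusted p under 0.05, the study's thresholds. This scale understates changes of low genes. Shares were tested with exact permutation tests (scipy 1.17.1). GENCODE M21 located 55154 of 55335 genes; 3225 had no symbol. Only the limma fit was tested on simulated data, with few genes changed and no common shift, unlike the data here. Genes were named by rule (highest level in a class, largest gain or loss of share, largest fold changes, lowest adjusted p of a list, most abundant unmoved), with exceptions stated. Members and lists were chosen with earlier results of these data known. Alternatives were 2 pseudocounts, 4 filters, 4 scalings, other fits, a fold over 2 and leaving out libraries. Selections of protein-coding genes or of genes with at least 200 bases of exon for the shares were chosen after seeing the data. Some named genes and 1 described family are not reported here.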

Additional observations from a re-analysis of the deposited data

How the results depend on the processing

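The counts of calls were within 1.5 times of the reported 8882 under every alternative run except 2. With a mean of at least 5 FPKM 4652 genes were called, 3344 of them lower, and with a fold over 2 there were 2932, 955 higher and 1977 lower. Quantile normalization gave 2889 higher and 4157 lower genes, and the cause was not tested. The median log2 fold change was negative throughout: -0.4916 on a TPM scale without Gm23935 and AY036118, -0.4051 for genes at 1 FPKM in all 6 libraries, -0.3682 with a mean of at least 5 FPKM, -0.05631 with no filter, -0.5645 and -0.5096 with pseudocounts of 0.1 and 0.5, -0.1056 with quantile and -0.2512 with upper-quartile scaling.

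Classes defined by zero moved most. Switched-on genes numbered 66 with under 0.1 FPKM allowed, 11 at 2 FPKM or more, 43 on the TPM scale and 20 to 30 with 1 library left out, 30 of them without Control replicate 2. Lost genes numbered 27, 1 and 13 under the same 3 settings, 6 at 0.5 FPKM or more and 3 to 5 with 1 library left out, 5 without Model replicate 3. A zero is limited by depth.

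For the shares, selections made after seeing the data gave, for protein-coding genes and for genes of at least 200 bases, differences of 7.7 and 7.115 percentage points for the best-known genes, -3.401 and -3.863 for the top 10 and 5.866 and 4.92 for the top 1000. The difference in the number of genes holding 50% was 20 as reported, and reversed to -43.67 and -24.33, and to -4.333 without Gm23935 and AY036118. Lyz2 reversed to 0.1714 with quantile normalization. Of 200 named genes, 180 kept their call in each setting in which they were tested, the fold over 2 apart; 129 were tested at 1 FPKM in all 6 libraries and 159 with a mean of at least 5 FPKM.

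Same-numbered libraries of Control and Model deviated together with correlations of 0.152, 0.205 and 0.0499, so the numbers were not taken to pair them; Control replicates 1 and 2 correlated best with their own number and replicate 3 did not. With a replicate block 8913 genes were called, 1876 higher and 7037 lower.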
